A study of Mus musculus with 4 samples.

Results

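The nuclear-encoded genes of oxidative phosphorylation were examined in a MeRIP-seq experiment on mouse spinal cord. Members were chosen by gene symbol alone, as every name in the deposited tables that starts with Nduf, Cox and a digit, Atp5 or Uqcr, or that is Sdha, Sdhb, Sdhc, Sdhd, Cyc1 or Cycs. This gave 68 of the 13558 gene names in the tables. The CCI list held 60 of them with 96 peaks, the sham list held 65 with 105 peaks, and 57 were in both lists. Ndufa4l2, Ndufv2 and Atp5f1 were in the CCI list alone (4.41% of members, against 4.77% of all names), and 8 members were in the sham list alone (11.8%, against 8.45%).

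The spinal cords came from C57BL/6J mice of 6 to 8 weeks of age, taken on day 7 after surgery. In the chronic constriction injury (CCI) group loose silk ligatures were placed around the sciatic nerve, and in the sham group the operation was the same with no ligature. MeRIP-seq pulls down fragmented poly(A) RNA with an antibody against m6A, the N6-methyl mark on adenosine, and compares this IP library with the input library of the same RNA. Each group was represented by 1 IP library and 1 input library. Differences between the groups therefore could not be set against replicates, and no p-value is given. The number of mice in each library is not given in the sources used here. The value of a peak is its fold enrichment, the authors' ratio of IP over input. It measures antibody capture relative to input and not the amount of RNA or of protein, and fewer cells of a type and less RNA per cell cannot be told apart in a whole tissue. No read counts were used here, so the depth behind a fold enrichment is unknown.

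The labelled tissue was checked against marker genes, for which a peak shows an enriched transcript and not its level. Markers of neurons (Rbfox3, Snap25, Syt1), inhibitory neurons, motor neurons, oligodendrocytes, astrocytes and microglia all carried peaks in both lists, as did 3 of 4 caudal Hox genes. The muscle genes Ckm and Acta1 and the liver gene Alb had no peak. Paired marker peaks went both ways between the lists. For the 3 microglial markers Cx3cr1, Csf1r and P2ry12, CCI over sham on the log2 scale had a median of 0.39. Of these 11 pairs, 6 were higher in CCI. Medians were 0.11 for oligodendrocytes (7 of 10 pairs higher), 0.0 for motor neurons and -0.04 for neurons. They were -0.07 for astrocytes (5 of 8 pairs lower) and -0.2 for inhibitory neurons (7 of 10 lower). These ratios do not measure cell numbers, and the part of cell composition in the results on members was not tested.

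Oxidative phosphorylation passes electrons from NADH and succinate through complexes I to IV of the inner mitochondrial membrane to oxygen, and ATP synthase (complex V) uses the resulting proton gradient to make ATP. Most subunits are encoded in the nucleus, translated in the cytosol and imported, and a small core is encoded by the mitochondrial genome. Neurons depend on this pathway for most of their ATP. The m6A mark is placed on nuclear transcripts during their synthesis, mostly near stop codons and in 3'-UTRs, and influences splicing, decay and translation of the mRNA.

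Of the 107 protein-coding genes in the RefSeq table of GRCm38.p6 that match the symbol rule, 67 (62.6%) had a peak in at least 1 list, against 54.5% of all 21900 protein-coding genes. Expression was not used, so the genes without a peak include any with too little RNA in the tissue for a peak to be called. A member known to the table by another name, Atp5sl, makes up the 68. Complex I had a peak in 26 of its 39 subunit genes, complex II in 3 of 4, complex III in 5 of 9, complex IV in 9 of 18, complex V in 10 of 17 and the assembly factors and partner proteins in 14 of 19. The complex V count includes Atp5o, whose peaks all lay outside its RefSeq gene. Of the 68 members, 65 had a peak inside the RefSeq span of the named gene. The genes with none included central subunits. Cycs, which encodes the electron carrier cytochrome c, had no peak in either list. Neither did Cyc1 (cytochrome c1 of complex III), Uqcrfs1 (the Rieske iron-sulphur protein), Cox5a, Sdhd, Atp5a1 and Atp5c1 (the alpha and gamma subunits of ATP synthase). For comparison, 60 of 78 mitochondrial ribosomal protein genes (76.9%) and 42 of 87 cytosolic ribosomal protein genes (48.3%) had a peak. Genomic length was much the same on both sides among the members, with a median of 7345 bp for those with a peak and 7128 bp for those with none, while over all genes the medians were 25617 bp with a peak and 9222 bp without.

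Member peaks were few per gene, and their median enrichment was lower in value than that of all peaks. In CCI 70.0% of the members in the list had 1 peak, and in sham 66.2%, against 35.2% and 35.3% of all genes. Member peaks had a median fold enrichment of 3.97 (CCI) and 4.18 (sham), and all peaks had 5.72 and 5.7. The 95% interval of the member median, from the order of the values, was 3.32 to 5.08 in CCI and 3.46 to 6.12 in sham, so the median of all peaks lay above it in CCI and inside it in sham. These values count the peaks named Atp5o, which lay outside that gene. Without them the member medians were 4.57 in CCI and 4.74 in sham. No interval was computed for these, so the CCI median is not shown to be below that of all peaks. Only 17.7% of the CCI member peaks and 24.8% of the sham member peaks reached 10, against 30.5% and 30.9% of all peaks. With the strongest peak of each gene, the member medians were 5.94 in CCI and 7.49 in sham, against 11.5 and 11.8 for all genes. Mitochondrial ribosomal protein peaks had medians of 7.33 and 5.14, and cytosolic ribosomal protein peaks of 8.86 and 8.6.

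**Figure D1:**
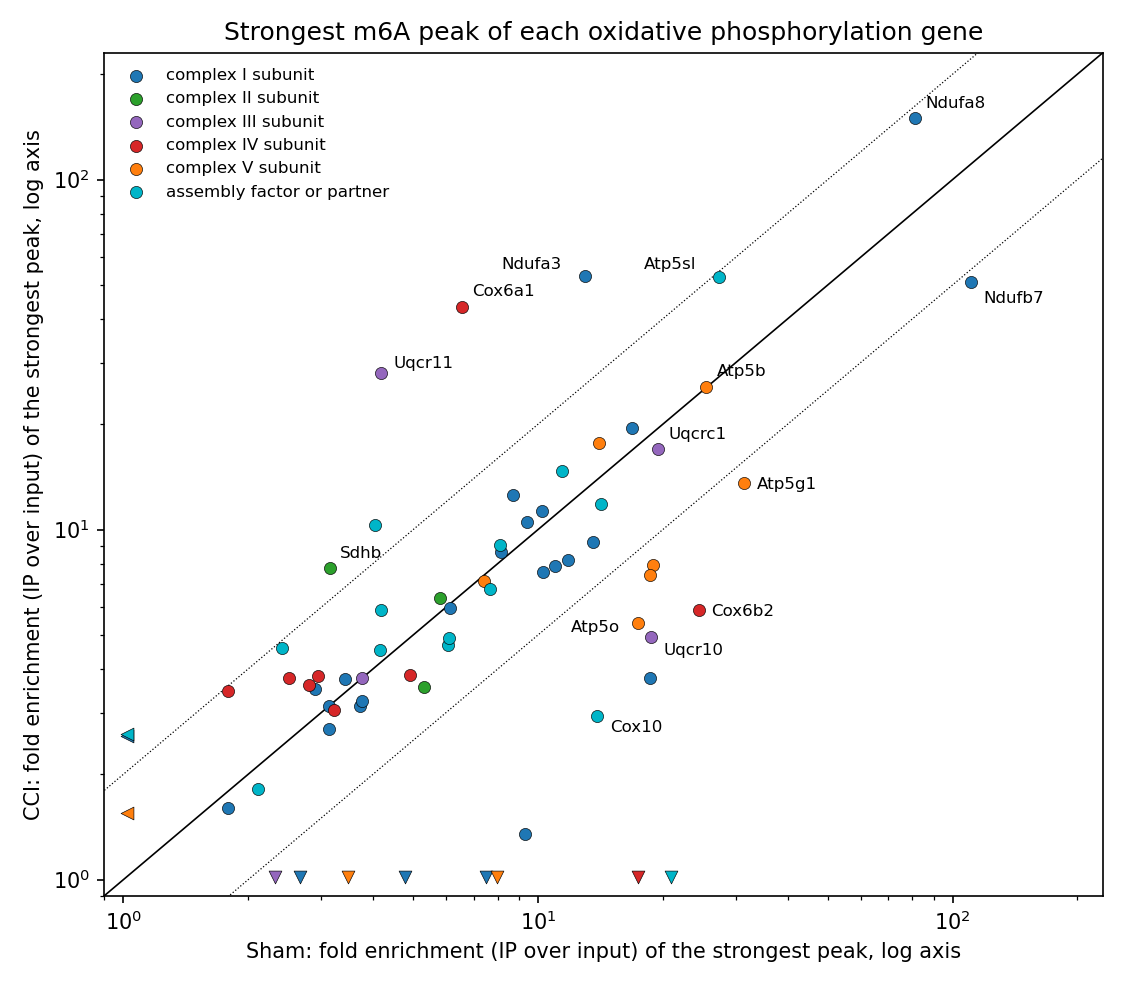
Fold enrichment (IP over input) of the strongest peak of each member in sham (x axis) and CCI (y axis), both on log axes, coloured by complex. The solid line marks equal values and the dotted lines a 2-fold difference. Triangles on the lower and left edges are the 8 members with a peak in sham alone and the 3 in CCI alone. Ndufa8 was highest in CCI at 150 and Ndufb7 was highest in sham at 111.

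Among complex I genes the 2 strongest sham peaks sat at opposite ends of the transcript. Ndufa8, an accessory subunit that faces the intermembrane space, had a peak of 209 bp over its start with a fold enrichment of 150 in CCI and 81.3 in sham, with identical borders in both lists. Ndufb7, another accessory subunit on that face, had its strongest peak at the end of the transcript, with 51.1 in CCI and 111 in sham, again with identical borders (211 bp). The Ndufb7 value was 2.17 times as high in sham, and the Ndufa8 value was 1.85 times as high in CCI. The core subunits of the electron-input arm were weaker and close together in the lists. Ndufs1, the large iron-sulphur subunit, had 3.13 in both, over an exon where a second annotated gene, Ino80dos, also lies. Ndufv1, which binds NADH and FMN, had 5.96 in CCI and 6.12 in sham. Ndufs7 and Ndufs8, which carry iron-sulphur clusters on the path to the quinone site, had 19.5 and 11.3 in CCI and 16.9 and 10.2 in sham.

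In what follows, a rise or a fall is a peak at least 2-fold higher or lower in the CCI library than in the sham library, with no test behind it. Ndufa3, an accessory subunit of the membrane arm, had the largest rise in complex I, from 13.0 in sham to 53.2 in CCI in its 3'-UTR, a log2 ratio of 2.03. Ndufv3, a small accessory subunit next to the NADH-binding module, had the most peaks of complex I over both lists together, with 5 in CCI and 3 in sham, while Ndufb7 and Ndufb2 had 4 each in sham. A single sham peak of 1140 bp and fold enrichment 11.0 covered the stretch where CCI had 3 shorter peaks with 2.54, 7.89 and 7.17, so the larger number of CCI peaks lay over the same exonic sequence. Ndufv2, a core subunit beside Ndufv1, had only a CCI peak, with 2.57.

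The 3 complex II genes with peaks had 1 peak each in each list. Sdha, the flavoprotein that oxidises succinate, had 6.37 in CCI and 5.81 in sham. Sdhb, the iron-sulphur subunit, had 7.76 in CCI and 3.15 in sham, 2.46 times as high in CCI. Sdhc, a membrane anchor, had 3.56 in CCI and 5.31 in sham. In complex III the core protein gene Uqcrc1 had the highest sham value, 19.5, and 17.0 in CCI. The small subunits Uqcr11 and Uqcr10 differed in direction. Uqcr11 went from 4.18 in sham to 28.1 in CCI over its start, the largest rise of all members, and Uqcr10 went from 18.7 in sham to 4.95 in CCI in its 3'-UTR.

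Complex IV held the second largest rise. Cox6a1, the isoform of subunit 6a found outside muscle, had 43.3 in CCI and 6.55 in sham near its start. The CCI peak of 118 bp covered the RefSeq start and shared 60 bp with the sham peak. The sham peak stopped short of the RefSeq start and covered only the start of a shorter annotated transcript. Its second peak, in the 3'-UTR, had 3.09 in CCI and 4.06 in sham, so the peaks at the start and the end of this short gene went opposite ways. Cox6b2, an isoform best known from testis, had 5.91 in CCI and 24.4 in sham. Cox4i1, the widespread isoform of subunit 4, was weak with 3.6 and 2.8, and its counterpart Cox4i2 had a peak of 17.4 in sham alone, at a place that also lies inside the RefSeq span of Bcl2l1. In ATP synthase the catalytic beta subunit gene Atp5b was nearly equal, with 25.6 in CCI and 25.5 in sham. Atp5g1 and Atp5g3, which both encode the membrane ring subunit c, went different ways at their starts, Atp5g1 with 13.6 in CCI and 31.4 in sham and Atp5g3 with 17.7 and 14.0. Atp5d, the delta subunit, had 6.81 and 18.9 over the start of its deposited gene model, and Atp5k, subunit e, had 7.43 and 18.6 on a peak of 528 bp in CCI and 557 bp in sham that reached the last base of the transcript. Atp5f1, the peripheral stalk subunit b, was in CCI alone with 1.55.

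Assembly factors and partners, which help build the complexes and are not part of the final enzymes in most cases, had peaks of similar strength, with medians of 4.57 in CCI and 4.1 in sham. Atp5sl, an assembly factor of complex I despite its name, had the strongest one, with 52.6 in CCI and 27.3 in sham. Ndufaf4, also of complex I, had 10.3 and 4.05 in its 3'-UTR. Cox10, which makes heme O for complex IV, had 2.94 in CCI and 13.9 in sham. Cox15, the enzyme of the next step to heme A, had 3 peaks in each list between 2.08 and 6.1. Ndufaf8 had 20.9 in sham and no CCI peak, and this sham peak began past the end of the RefSeq span of the gene.

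By the authors' annotation, 62.5% of the CCI member peaks (95% Wilson interval 52.5 to 71.5) were in the 3'-UTR, 19.8% (13.1 to 28.9) in the 5'-UTR and 17.7% (11.4 to 26.5) in other exons. In sham the shares were 58.1% (48.5 to 67.1), 19.0% (12.7 to 27.6) and 22.9% (15.9 to 31.8). These intervals, like all those given here, cover counting error only. Other exons held 35.5% of all CCI peaks and 35.1% of all sham peaks, above the upper bounds of the members' intervals. The 3'-UTR held 49.8% of all peaks in CCI, below the members' interval, and 48.9% in sham, inside it. The 5'-UTR share of all peaks was 14.7% and 16.1%, inside the members' intervals. Without the peaks named Atp5o, the members' 5'-UTR shares were 23.2% in CCI and 21.7% in sham. No interval was computed without them, and the comparisons of intervals in this paragraph all count them. The 5'-UTR shares of both ribosomal protein families were lower in value than that of the members, with 4.44% (1.74 to 10.9) for mitochondrial ribosomal proteins and 6.67% (2.29 to 17.9) for cytosolic ones in CCI, and 7.14% (3.5 to 14.0) and 5.45% (1.87 to 14.9) in sham. With the peaks named Atp5o counted, the intervals of the members and of the mitochondrial ribosomal proteins did not meet in CCI and met in sham. Those of the cytosolic family met the members' in both lists.

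**Figure D2:**
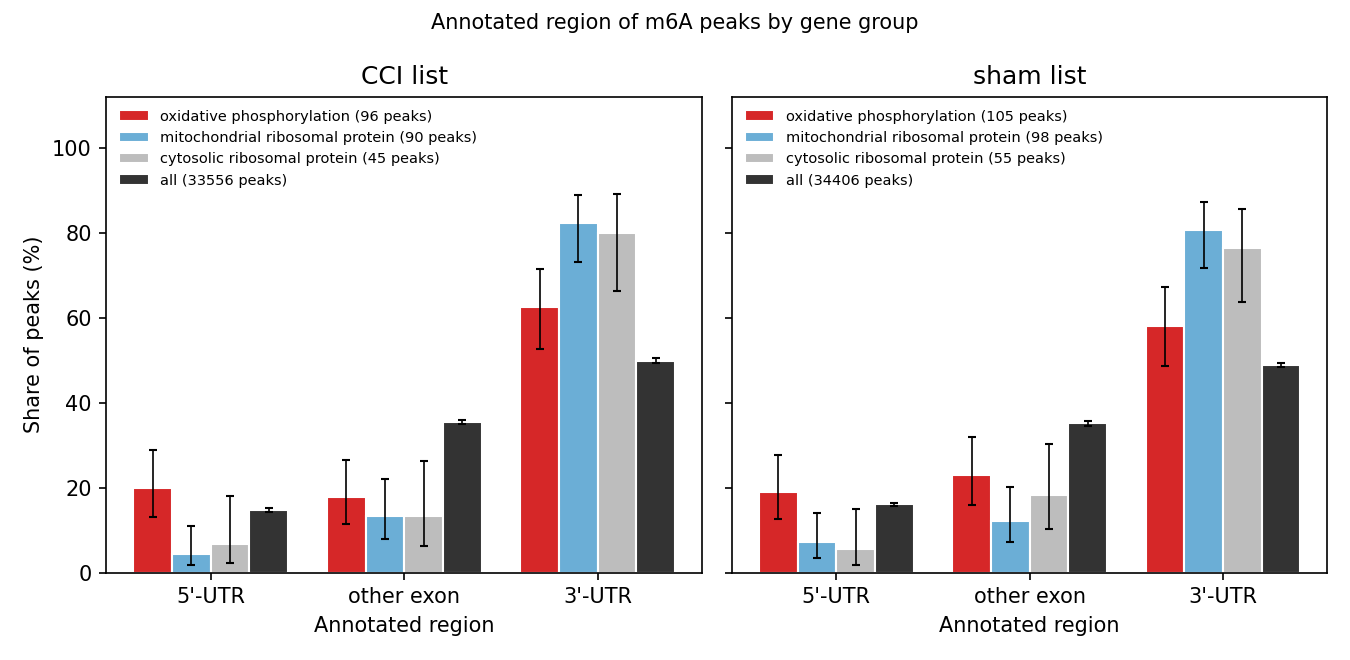
Share of peaks (%) in each annotated region for the members, the mitochondrial and cytosolic ribosomal protein genes and all peaks, in the CCI list (left) and the sham list (right). Bars start at 0 and error bars are 95% Wilson intervals. The 5'-UTR bar of the members stands at 19.8% in CCI and 19.0% in sham, above both ribosomal protein families.

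Member peaks lay near the end of the transcript more often than all peaks did. In CCI 32.3% of them and in sham 31.4% came within 100 bp of the annotated transcript end, against 12.4% and 13.0% of all peaks. The shares were higher in value in both ribosomal protein families, at 53.3% and 56.4% for cytosolic and 38.9% and 38.8% for mitochondrial ribosomal proteins. A peak lay over the annotated start for 18.8% of the CCI and 21.9% of the sham member peaks, against 15.4% and 16.5% of all peaks. The members are short genes, so a peak of a given width covers more of the transcript, and the part of length in these shares was not tested.

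In all, 21 members had a peak over the start in at least 1 list. RefSeq start sequences of GRCm38.p6 were found for 20 of them, and in 17 the peak shared bases with the first 50 transcribed bases. The sequences are given for the 7 of these with a fold enrichment of at least 8 in a list. This limit was set after the values were seen. The sequences are shown because the CCI peaks of the largest rises and the strongest CCI peak were at such starts. Each runs from 9 bases before the annotated first base to 20 bases after it, with the first transcribed base in capitals.
Ndufa8, chr2:36049318-36049347, minus strand: cgcatgcgcAgatggtaccgggcagtcttg
Cox6a1, chr5:115348938-115348967, minus strand: cgcgccggtGtagttccatgatggcgtcgg
Uqcr11, chr10:80406801-80406830, minus strand: ttcacgcatGcgctatacgtctgcacatgc
Atp5g1, chr11:96075611-96075640, minus strand: gctaaagctGggaggtgagtcagtcacctt
Atp5g3, chr2:73911306-73911335, minus strand: ggcgcggatAagagccgcaccgcgcttgcg
Ndufs6, chr13:73328462-73328491, minus strand: cgccggcacTtggtacgacgcgtggggtca
Ndufb10, chr17:24724403-24724432, minus strand: cctttctgcGcaggcgtagaggtcccgcgt
An adenosine that is the first transcribed base can carry a methyl mark that m6A antibodies also recognise. The annotated first base was A in Ndufa8 and Atp5g3 among the sequences shown, and in 3 of the 17 starts (17.6%), against 34.4% of all 32851 RefSeq starts. Over the 92 RefSeq starts of genes that match the symbol rule, with or without a peak, the share was 22.8%. The 2 starts with the largest rises, Uqcr11 and Cox6a1, had G there, and in Cox6a1 only the CCI peak covered the annotated first base. The letters GGAC, a core form of the m6A consensus, were found on the transcribed strand within the first 50 bases of 3 of the 17 starts (17.6%), against 18.9% of all starts, and on the other strand in 5 (29.4%), against 17.4%. Over the same 92 starts with or without a peak, the shares were 23.9% and 28.3%. A match is a description of the letters and not a mapped site, and annotated starts can differ from those used in the spinal cord.

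The comparison of CCI with sham rests on peaks that overlapped by at least 1 exonic bp and were each other's best partner. There were 81 such pairs in 55 members. On the log2 scale the ratio of CCI to sham had a median of -0.05 over them, with quartiles at -0.37 and 0.36, and that of all 27380 pairs was 0.03. The members as a whole were not displaced between the lists, with 43 pairs lower and 37 higher in CCI, and 52 of the 81 pairs (64.2%) within 0.5 of 0 on the log2 scale, against 58.5% of all pairs. The medians by complex ran from -0.2 in complex III (5 pairs) to 0.16 in the assembly factors and partners (18 pairs), with -0.08 in complex I (27 pairs), -0.08 in complex IV (9 pairs), -0.06 in complex V (19 pairs) and 0.13 in complex II (3 pairs).

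At least 2-fold higher in CCI were 7 pairs (8.64%), against 8.59% of all pairs. At least 2-fold lower were 8 pairs (9.88%), against 7.25% of all pairs. Both shares were near the background. The rises were Uqcr11 (log2 ratio 2.75), Cox6a1 (2.72), Ndufa3 (2.03), a peak named Atp5o (1.44), Ndufaf4 (1.35), Sdhb (1.30) and an exon peak of Ndufb7 (1.05, from 3.02 to 6.25). The falls were a peak named Atp5o (-2.39), Cox10 (-2.24), Cox6b2 (-2.05), Uqcr10 (-1.92), Atp5d (-1.47), Atp5k (-1.32), Atp5g1 (-1.21) and the 3'-UTR peak of Ndufb7 (-1.12). Complex V held 4 of the 8 falls, 1 of them under the name Atp5o. Of its 19 pairs, 12 were named Atp5o, a name treated separately below. The remaining pairs of that name lay between -0.45 and 1.44, and those of the other complex V genes between -0.06 and 0.34. Ndufb7 was in both groups, with its exon peak higher and its 3'-UTR peak lower in CCI.

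**Figure D3:**
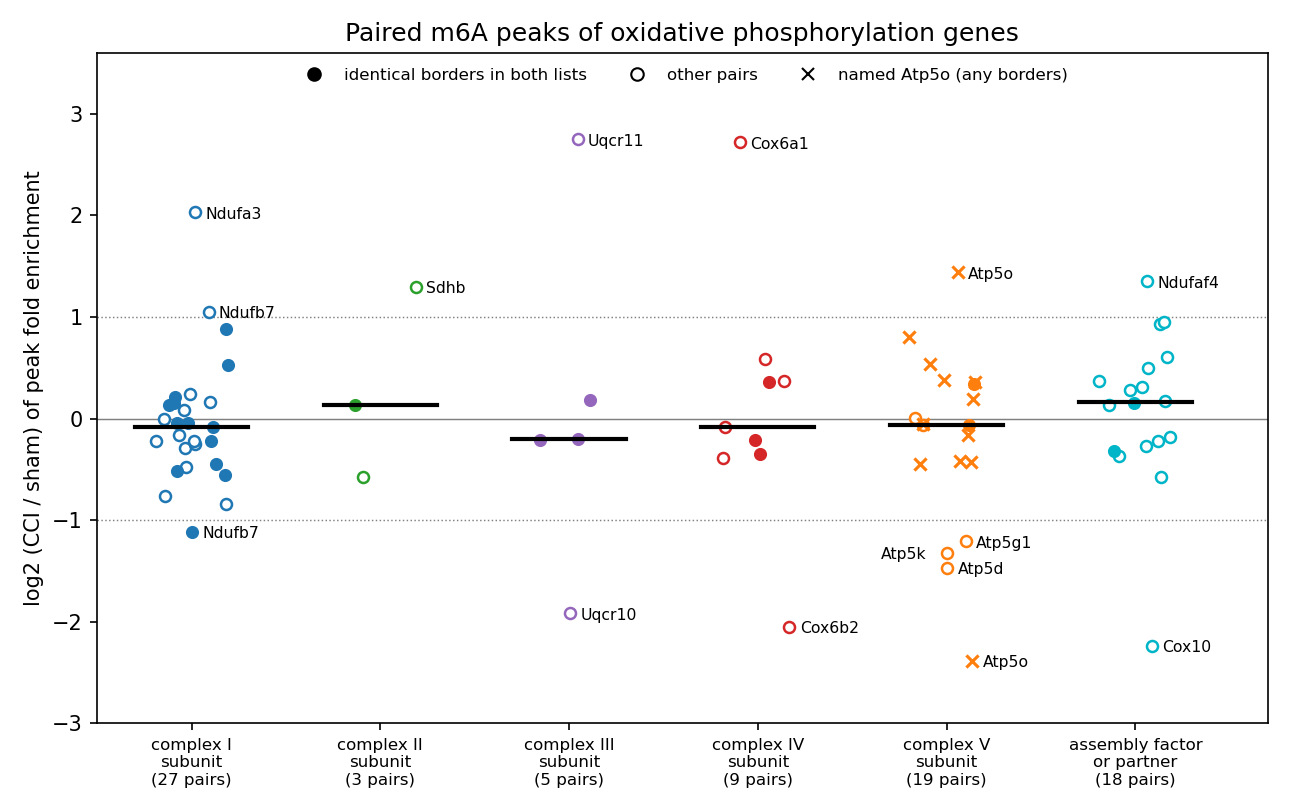
Fold enrichment in CCI over that in sham (log2) for each of the 81 pairs, by complex. Filled points are pairs with identical borders in both lists, open points are other pairs, crosses are peaks named Atp5o, and black bars are medians. Dotted lines mark a 2-fold difference, and 15 pairs lie beyond them, of which 1 (Ndufb7, -1.12) had identical borders.

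The sham fold enrichment of the 8 falls ran from 13.9 for Cox10 to 111 for Ndufb7. In 25 member pairs the borders were the same in both lists, and these pairs ran from -1.12 to 0.88 with a median of -0.04, against a median of 0.07 for all 5237 such pairs. None of the 25 was at least 2-fold higher and 1 (4.0%) was at least 2-fold lower in CCI, against 7.31% and 4.16% of all pairs with identical borders.

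Peaks with no overlapping partner made up 12 of the 96 CCI member peaks (12.5%, 95% Wilson interval 7.3 to 20.6), against 12.3% of all CCI peaks, and 24 of the 105 sham member peaks (22.9%, interval 15.9 to 31.8), against 16.1% of all sham peaks, which lay inside that interval. The CCI member peaks without a partner ran from 1.35 to 3.78 with a median of 2.35, and the sham ones had a median of 3.49. Over all peaks without a partner the medians were 3.17 in CCI and 4.13 in sham, against 6.14 and 6.01 with a partner. The highest sham member peaks without a partner were 20.9 in Ndufaf8, 18.6 in Ndufa11 (an accessory subunit of complex I) and 17.4 in Cox4i2. Over all peaks without a partner the highest values were 37.5 in CCI and 60.4 in sham. Ndufa11 had 2 sham peaks and 1 CCI peak (3.78), all in the 3'-UTR and none overlapping. Of the 24 sham peaks, 11 were in complex I genes, which held 38 of the 105 sham member peaks. Among the 11 were the start peaks of Ndufb10 (9.3) and Ndufb8 (4.78). Atp5l, subunit g of ATP synthase, was in the sham list alone with 7.97, and Ndufab1, the mitochondrial acyl carrier protein that is also a complex I subunit, with 7.49. A gene can hold an unpaired peak in a list and still be in both lists, as Uqcrc1 did with a sham exon peak of 7.69. The authors' table of peaks that differ between CCI and sham held a row for 13 members (19.1%), against 25.3% of all gene names, and its values were not used.

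The name Atp5o needs separate treatment. Atp5o encodes the subunit that confers oligomycin sensitivity on ATP synthase, and the name had by far the most peaks, 14 in CCI and 13 in sham. In the tables it belongs to a gene model on chromosome 16 from 91684398 to 91926982, whereas the RefSeq gene is 6408 bp long, from 91925223 to 91931630. None of the 27 peaks overlapped the RefSeq gene. In CCI 13 peaks and in sham 11 lay over Itsn1, which encodes a scaffold protein of endocytosis and synaptic vesicle recycling. The strongest sham peaks of that name, 17.4 and 13.9, were at the far end of the model, near 238 kb from its start, over the lncRNA gene Gm10785 and over Donson. The pair over Gm10785 was the largest fall given above, with 3.32 in CCI. These peaks therefore give no value for the ATP synthase subunit in either group.

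**Figure D4:**
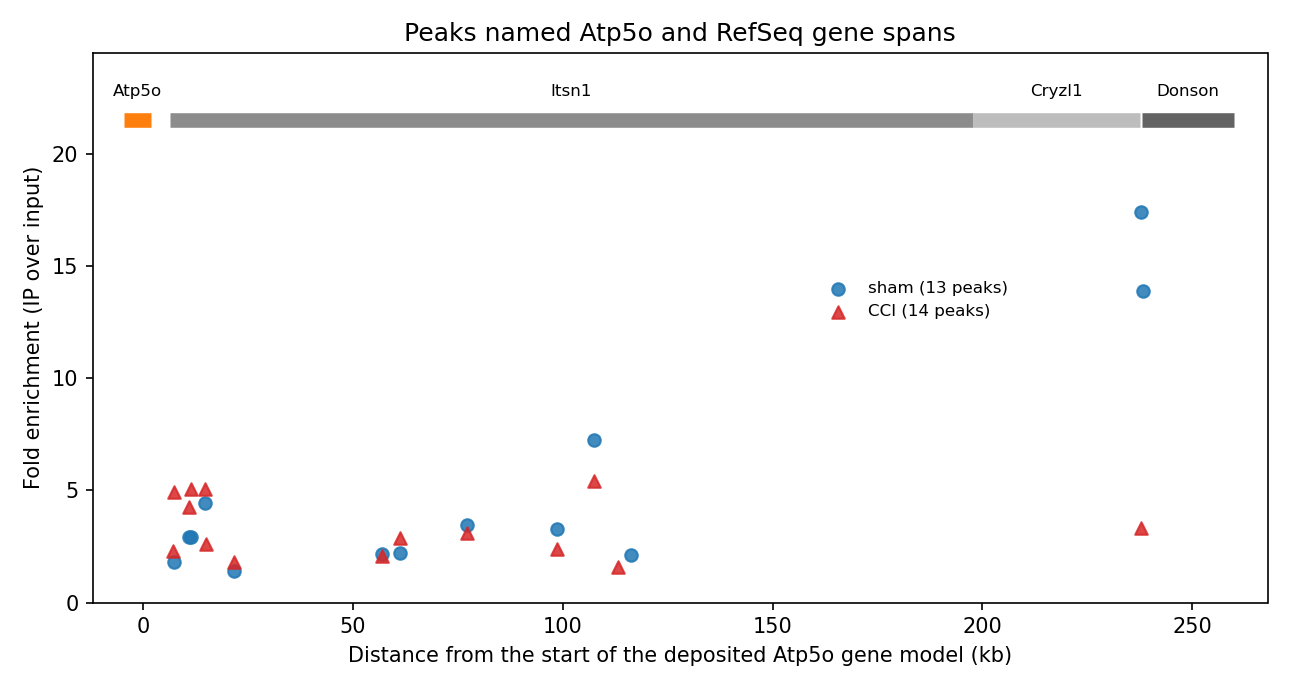
Fold enrichment of each peak named Atp5o (circles sham, triangles CCI) against its distance in kb from the start of the deposited gene model, with RefSeq gene spans drawn to scale along the top. No peak lies under the bar of Atp5o, and 13 CCI and 11 sham peaks lie under Itsn1.

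Other member names also had peaks outside their RefSeq gene. In CCI 18 of 96 member peaks (18.8%) and in sham 17 of 105 (16.2%) lay outside, against 3.21% and 3.37% of all peaks with a matched name. Without Atp5o the shares were 4.88% and 4.35%. Strong peaks named Ndufb2 (9.24 in CCI, 13.6 in sham) lay at the edge of Braf, and peaks named Ndufaf2 (9.01 and 8.12) lay over Smim15. The peak named Cox6c lay over Vps13b. Others lay inside their own gene where a second gene is annotated as well, such as the Atp5d start peak (Cbarp), the Uqcr10 peak (Gm51883) and the Ndufs6 start peak (Mrpl36). Whether the peak calling used the strand of the reads is not stated, so the genes of such a place cannot be told apart.

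The genes of the pathway that the symbol rule leaves out were taken as a list of 35 assembly factors and partners. A peak was found in 25 of them, and their 36 pairs had a median log2 ratio of -0.18. At least 2-fold higher in CCI was 1 pair (2.78%), against 8.59% of all pairs. At least 2-fold lower were 3 pairs (8.33%), against 7.25% of all pairs, so the share of falls was near the background. Coa4, a factor for complex IV, had 8.54 in CCI and 20.9 in sham. Pet100, also for complex IV, had a sham peak of 25.6 and no CCI peak. Acad9, needed for complex I assembly, had a strongest peak of 15.6 in CCI and 6.1 in sham.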

How the data were processed

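The authors' peak list of CCI, their peak list of sham and their table of peaks that differ were used. The fold enrichment in the deposited lists is a ratio of IP over input made by the authors. The deposited log10 p-value and log10 false discovery rate of each peak were handled as a score and used only for a filter. The table of differing peaks holds the authors' own fold changes and p-values of CCI against sham, of which nothing but gene names was taken. The methods name Cutadapt, bowtie and MACS2, the submitters' processing notes name fastp, HISAT2, HOMER, ChIPseeker and GRCm38, and the columns are those of exomePeak.

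Peaks were paired by exonic blocks (at least 1 bp, mutual best by shared share of the union), which was tested on simulated lists. Families were taken by symbol, the cytosolic ribosomal one without the Rps6k kinases. Member names matched RefSeq by symbol (66) or synonym (2). With 1 library per group no test was made. Genes were named by a rule: the 2 highest in sham per complex, the 5 largest rises and falls, the 3 highest of those in 1 list alone, the 5 with most peaks, and 10 central subunits. Further genes (among them Atp5g3, Atp5k, Ndufs7, Ndufs8, Ndufa11 and those outside the rule) were chosen after their values were seen. Members and lists were chosen with earlier results of these data known. Scripts ran in Python 3.11.15 with pandas 2.3.3, numpy 2.4.6, matplotlib 3.10.9 and scipy 1.17.1.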

Additional observations from a re-analysis of the deposited data

How the results depend on the processing

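The 16 values for the members were computed again under 14 other settings, 3 of which (without Atp5o, peaks inside their RefSeq gene, identical borders) were chosen after seeing the data. Of 105 values, 99 stayed within the 95% interval of the value given or, for counts, within 1.5 times. With the strongest peak of each gene the median fold enrichment was 5.94 in CCI and 7.49 in sham. With an overlap of 50% of both peaks, 22.9% of the CCI member peaks had no partner. A fold of 1.5 gave 13 higher and 10 lower pairs, and identical borders gave 0 higher pairs and 1 lower pair. The last of these keeps fewer pairs by construction. No paired analysis was possible because a group is 1 IP and 1 input library, and for that reason no library could be left out. The unknown depth limits every single ratio.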

Other observations

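The remaining subunits of the oxidative phosphorylation complexes are encoded in the mitochondrial genome. All 9 pairs of peaks with a mitochondrial gene name were higher in CCI, with a median log2 ratio of 0.33 and a range from 0.07 (mt-Cytb) to 0.77 (mt-Nd4), and 37 of the 81 nuclear-encoded pairs were higher. Of the 9 names, 7 are subunit genes, and mt-Ti (0.61) and mt-Tw (0.73) are transfer RNA genes. The mt-Nd4 peak had 40.3 in CCI and 23.6 in sham, and the mt-Co1 peak had 2.79 and 2.22. None of the 9 reached a 2-fold difference. Mitochondrial transcripts lie side by side on both strands, neighbouring peaks share their RNA, and whether the peak calling used strand is not stated, so the 9 pairs are not independent of each other.

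Of 13 regulators of mitochondrial biogenesis, 12 had a peak in at least 1 list, and their 29 pairs had a median log2 ratio of 0.08. Esrra, a nuclear receptor that drives genes of oxidative metabolism, had the strongest peak of this list, with 73.5 in CCI and 41.4 in sham, and its 3 pairs were all higher in CCI, by 0.41 to 1.80 on the log2 scale. The coactivator Ppargc1b had 26.8 in CCI and 39.3 in sham and its 3 pairs were all lower, by -0.85 to -0.07. Ppargc1a, its close relative, had a strongest peak of 10.2 in both lists. The cytosolic ribosomal protein genes had 42 pairs with a median of 0.05 and the mitochondrial ones 77 pairs with a median of 0.06.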
